A study of Homo sapiens with 36 samples.

Results

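C/D box small nucleolar RNAs (SNORD genes) are short guide RNAs of the nucleolus. Each carries the box C and box D motifs and assembles with the proteins fibrillarin, NOP56, NOP58 and SNU13 into a particle, in which the RNA pairs with its target and fibrillarin methylates a ribose of that target. Most guide the methylation of ribosomal RNA, a few (U3, U8, U13 and U14) serve the cleavage, folding or acetylation of pre-ribosomal RNA, and others have spliceosomal RNA or no known target. Most human members are cut from introns of host genes, many of which encode ribosomal or translation proteins. The families SNORD113 and SNORD114 lie in the imprinted DLK1-DIO3 region of chromosome 14, and SNORD115 and SNORD116 in the imprinted Prader-Willi region of chromosome 15, each as tandem copies of closely similar sequence.

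The members were the array units whose only gene symbol begins with SNORD and a digit, and of several units with a symbol the brightest by the mean of all 36 arrays was taken. This gave 152 symbols of the 33616 genes with a single-symbol unit on the array. Of these, 63 belonged to the imprinted families, namely 9 copies of SNORD113, 30 of SNORD114, 22 of SNORD115 and 2 of SNORD116. Among the other 89, the unit of 63 lay on the chromosome that RefSeq gives for the gene and that of 22 on another chromosome. Those 22 were taken as further copies of the family, and their sequence was not checked. Another 3 (SNORD24, SNORD36A and SNORD36C, all of the RPL7A introns) were on no placed chromosome, and SNORD39 had no RefSeq entry. The 89 include SNORD64, SNORD109B and SNORD112, whose RefSeq hosts include SNHG14 or MEG8, as those of the imprinted copies do. A further 96 SNORD symbols occur only in units that carry several symbols, and these are not described.

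The cells were the established line MEC-1, grown from human B cells of a chronic lymphocytic leukaemia. All groups received locked nucleic acid gapmers (antisense oligonucleotides that recruit RNase H) by unassisted uptake, at 1 µM of each gapmer over 4 days. Separate experiments targeted the long non-coding RNAs CYTOR (LINC00152), LINC00158 and RP11-161H23.5, each with a scrambled gapmer, gapmer 1, gapmer 2 and gapmer 1+2 together, on 3 arrays per group, so 36 arrays in 12 groups. The combined groups may hold more oligonucleotide in total, and nothing in the labels says that the 3 arrays came from separate cultures, so each p-value measures the spread between these arrays, which may be technical.

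The values are log2 signals of total RNA, with an array median between 3.82 and 4.09. The B-cell markers matched the labelled cell type: all 8 measured ones had mean levels among the top 10% of units, between 8.85 and 13.7, whereas the 8 myeloid markers reached 4.67 at most and the 4 erythroid and platelet markers 4.55. COL1A1 stood at 8.19 among the stromal markers and CD3E at 6.75 among the T and NK cell markers. In the LINC00158 experiment the LINC00158 unit read 8.80, 7.50 and 7.51 on the scrambled arrays and fell, with changes of -2.36, -1.92 and -2.62 for gapmers 1, 2 and 1+2 (limma adjusted p = 0.0071, 0.0107 and 0.00385). It also fell (-1.15, -1.34 and -1.44) in the RP11-161H23.5 experiment (limma adjusted p = 0.0252, 0.014 and 0.00794). The CYTOR unit went against its label, since it read 5.25, 5.27 and 5.51 on the scrambled arrays of its own experiment and rose by 1.59, 1.21 and 0.92 (limma adjusted p = 0.00385, 0.0104 and 0.036). It was lower instead with LINC00158 gapmers 2 and 1+2 (-1.37 and -1.70, limma adjusted p = 0.0152 and 0.00799) and with RP11-161H23.5 gapmer 2 (-0.99, limma adjusted p = 0.0435). A near-identical paralog of CYTOR exists, so that level is uncertain, and "CYTOR arrays" below means the arrays so labelled, whose silencing this unit does not show. RP11-161H23.5 has no unit of its own symbol and was not checked.

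Exact repeats of values divided the arrays into 4 sets of 9, namely the 9 scrambled arrays and the 9 treated arrays of each experiment. Among 7583 bright units, at least 2.39% of values were identical between any pair of arrays of a set and at most 0.87% between arrays of different sets. Every comparison of treated with scrambled arrays therefore crosses 2 sets, and the treatment and the set cannot be told apart, whereas comparisons among the treatments of an experiment, or among the scrambled groups, stay within a set. The first array of LINC00158 gapmer 1 stood apart from its partners for several members and is given separately where a count rests on it.

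The sequences of the small RNAs themselves were not used here. Host promoters are shown instead, for some of the hosts: NCL (SNORD82 and SNORD20), SNX5 (SNORD17), RC3H2 (SNORD90), PTCD3 (SNORD94) and RPL7A (SNORD24, SNORD36A and SNORD36C). Of these members, SNORD20, SNORD36A and SNORD36C were called in no treatment. Each is given 5′ to 3′ on the strand of the gene, from RefSeq on GRCh38.p14, as 40 bases before and 20 from the annotated start. Capitals mark the run of C or T that holds or adjoins the first transcribed base. Transcripts of translation genes often begin with such a run. The marked run holds that base in SNX5 and RPL7A, ends just before it in NCL and PTCD3, and begins just after it in RC3H2.
NCL, chr2:231464465-231464524, minus strand: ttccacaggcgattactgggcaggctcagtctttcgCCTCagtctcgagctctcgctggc
SNX5, chr20:17968775-17968834, minus strand: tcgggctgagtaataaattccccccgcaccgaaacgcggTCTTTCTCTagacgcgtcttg
RC3H2, chr9:122905340-122905399, minus strand: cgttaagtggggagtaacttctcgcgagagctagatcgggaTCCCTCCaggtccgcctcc
PTCD3, chr2:86106195-86106254, plus strand: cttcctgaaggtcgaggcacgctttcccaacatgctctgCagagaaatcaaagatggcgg
RPL7A, chr9:133348178-133348237, plus strand: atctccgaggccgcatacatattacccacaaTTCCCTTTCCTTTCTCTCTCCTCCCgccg
The run measured 25 bases in RPL7A, 9 in SNX5, 7 in RC3H2, 4 in NCL and 1 in PTCD3. Of 62 hosts of members outside the imprinted families, 48 were in the promoter table, and 20 of these (41.7%) had a run of at least 6 bases on the coding strand at the start, against 20.1% of all 27305 genes in that table. The run is a description of the letters at or next to the annotated start and was not set against any change.

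The members differed widely in signal, although levels of different units do not compare amounts of RNA. SNORD13 (U13), which guides the acetylation of 18S ribosomal RNA, ranged from 16.52 to 19.74 over the 36 arrays, and the RPL7A intron snoRNA SNORD24 from 15.15 to 17.69. The mean was at least 8 for 20 members, none of them imprinted. The imprinted copies had a median of 3.82, close to the median of 3.94 over all units, and 25 of the 63 reached that median. Only SNORD115-45 (7.67) and SNORD115-24 (6.63) had a mean of at least 6 among them. The other 89 had a median of 4.91, and 66 of them reached the median of all units.

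Across treatments members were called in both directions, at shares that lay on either side of those of all array units. A unit was called at a limma Benjamini-Hochberg adjusted p under 0.05, two-sided, among the units at or above the median signal of the experiment, which left 92 members in the CYTOR experiment, 94 in the LINC00158 experiment and 93 in the RP11-161H23.5 experiment. Of the 152 members, 77 passed this filter in all 3 experiments and 42 in none. At least 1 call in the 9 treatments was made for 43 of the 110 members tested in at least 1 experiment, or 39.1%, beside 41.8% of all units. The members SNORD94 and SNORD114-14 in the LINC00158 experiment, and SNORD113-4, SNORD114-9 and SNORD119 in the RP11-161H23.5 experiment, were called higher from a scrambled mean below the filter (3.97 and 3.96). They entered the test through their treated arrays, so their values are given as a description. The counts and shares of called members still include them. Such units were not taken out of the shares of all units either. In the fit of all units without the filter SNORD114-9 was not called (limma adjusted p = 0.0509 and 0.0537 with gapmers 1 and 2).

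On the CYTOR arrays nearly every called member was lower. With gapmer 1, 0 members were called higher (1.77% of all units tested were) and 5 lower (11.4% of all units). With gapmer 2, 1 was higher (1.84% of units) and 11 lower (12.4%). With gapmer 1+2, 0 were higher (1.54%) and 7 lower (8.93%). The members called lower were 5.43%, 12% and 7.61% of those tested, and the difference from all units was not tested. The median change over all 152 members was -0.16, -0.18 and -0.15, and over all array units -0.15, -0.14 and -0.13. Quantile normalization removed that general shift and left 1 member higher and 2 lower with gapmer 1 (3.05% and 2.96% of all units), 2 and 5 with gapmer 2 (3.43% and 3.34%), and 1 and 1 with gapmer 1+2 (2.2% and 2.08%).

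In the LINC00158 experiment calls went both ways. With gapmer 1, 4 members were higher (4.54% of units) and 9 lower (6.28%), with gapmer 2, 6 higher (6.89%) and 11 lower (10.5%), and with gapmer 1+2, 7 higher (6.19%) and 8 lower (8.82%). These higher calls include SNORD94 with each treatment and SNORD114-14 with gapmers 2 and 1+2, from scrambled means below the filter. The classes differed in median change: the 63 imprinted copies had 0.17, 0.16 and 0.25 and the 89 others -0.44, -0.36 and -0.27. All units had -0.07, -0.06 and -0.09. Within the imprinted class SNORD115 had 0.52, 0.58 and 0.795, SNORD114 0.06, 0.07 and 0.14, and SNORD113 -0.24, -0.12 and -0.01. SNORD116 had -0.54, -0.54 and -0.09. Among the others, copies on another chromosome had 0.01, -0.01 and -0.16. On the scrambled arrays, CYTOR minus LINC00158 gave 0.11 for imprinted copies and -0.19 for the others. LINC00158 minus the remaining experiment gave -0.28 and 0.29. The part of these control levels was not tested. Without the first array of gapmer 1, 7 members were higher and 25 lower with that gapmer, and the shares over all units rose to 8.38% and 17.2%. The B-cell markers moved with the same treatments: 1, 6 and 5 of the 8 were lower and none higher, and their mean level went from between 11.82 and 11.99 on the scrambled arrays to between 9.90 and 11.84 on the treated ones. COL1A1, a collagen gene of the stromal list, rose by 1.43 and 1.33 with gapmers 2 and 1+2. Of the other lists no marker was higher, 2 T and NK cell markers were lower with each treatment, and 1, 2 and 2 myeloid markers were lower. The part of these markers in the results of that experiment was not tested.

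In the RP11-161H23.5 experiment, 6 members were higher (6.19% of units) and 7 lower (7.1%) with gapmer 1, 5 higher (5.2%) and 8 lower (7.03%) with gapmer 2, and 7 higher (6.98%) and 5 lower (9.3%) with gapmer 1+2. Quantile normalization turned these splits into 8 higher and 5 lower, 7 and 6, and 11 and 4, and over all units it likewise made the higher calls the more numerous (7.51% and 5.75%, 6.49% and 5.34%, and 8.57% and 7.43%). The higher calls given first include SNORD113-4 with each treatment, SNORD114-9 with gapmers 1 and 2 and SNORD119 with gapmer 2. All of these came from scrambled means below the filter. With gapmer 1+2, 4 of the 8 B-cell markers were lower, CD40 by 1.94, and their part in the results was not tested. The median change over the members was -0.07, -0.10 and -0.03 beside -0.03, -0.04 and -0.03 for all units.

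**Figure D1:**
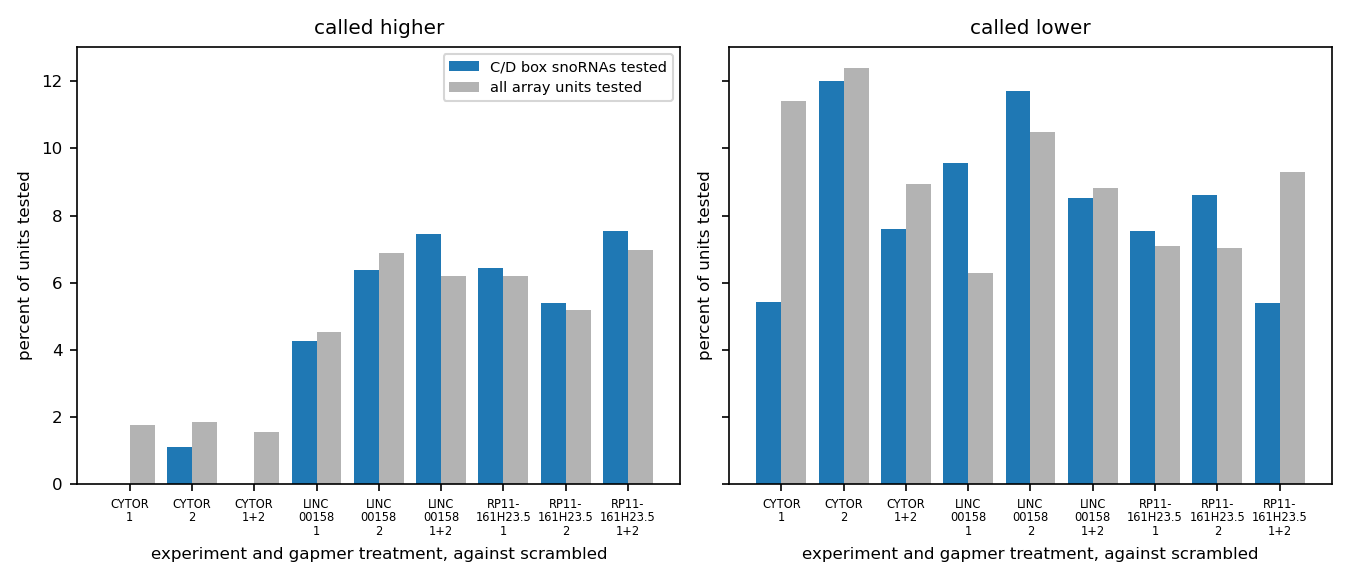
Percent of the tested C/D box snoRNAs (blue) and of all tested array units (grey) called higher (left) or lower (right) than scrambled at limma adjusted p under 0.05, for the 9 treatments. With CYTOR gapmer 1, 5.43% of the members and 11.4% of all units were called lower.

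**Figure D2:**
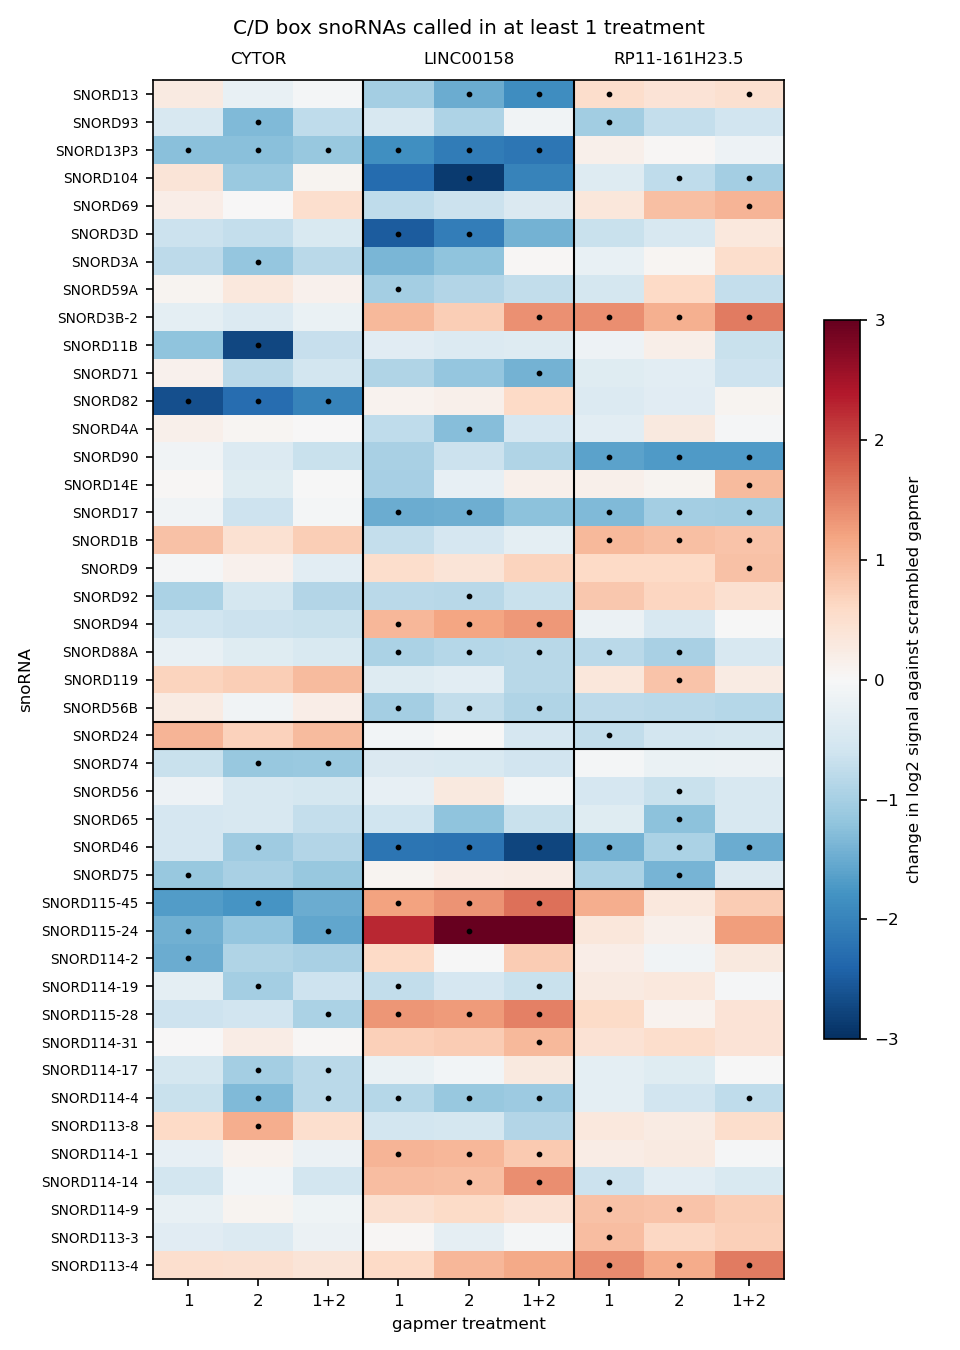
Change in log2 signal against scrambled (colour scale, clipped at 3 either way) of the 43 members called in at least 1 treatment, with a dot at each call. From top to bottom the blocks hold units on the RefSeq chromosome, the unplaced SNORD24, copies on another chromosome and the imprinted copies, and SNORD115-24 and SNORD115-45 are blue on the CYTOR arrays and red in the LINC00158 experiment.

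Among the members on the CYTOR arrays, SNORD82 had the lowest mean change of the 3 treatments, -2.31. SNORD82 is an intron product of NCL, the gene of the nucleolar protein nucleolin. It read 6.72, 6.29 and 8.05 on the scrambled arrays, 4.78, 3.59 and 4.80 with gapmer 1, 4.40, 4.84 and 4.93 with gapmer 2, and 5.29, 4.79 and 4.98 with gapmer 1+2. All 9 treated arrays lay below all 3 scrambled arrays. The changes were -2.63, -2.30 and -2.00 (SE 0.44, n = 3 against 3), with limma adjusted p = 0.0054, 0.0088 and 0.0189. Fewer cells with the RNA and less of it per cell cannot be told apart here or in any result below. The first 2 calls held under all 14 alternatives run, and that of gapmer 1+2 under 10, the highest adjusted p being 0.0633. In the other experiments SNORD82 ranged from 5.81 to 7.40 and from 6.4 to 7.87, and no treatment was called. The NCL unit itself was not called on the CYTOR arrays (0.71, 0.21 and 0.37), and SNORD82 was not called in the RP11-161H23.5 experiment, where NCL fell by 1.11, 1.03 and 1.03 (limma adjusted p = 0.00738, 0.011 and 0.00849).

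SNORD11B, a guide of 18S ribosomal RNA in an intron of NOP58, was lower with CYTOR gapmer 2. Its scrambled arrays read 7.64, 7.26 and 8.71 and its gapmer 2 arrays 5.34, 4.51 and 5.57, without overlap, a change of -2.73 (SE 0.49, limma adjusted p = 0.0066) that was called in all 14 alternatives. Gapmers 1 and 1+2 gave -1.20 and -0.70 and were not called. SNORD93, which lies in the host transcript SNHG26 and guides 18S methylation, fell by 1.33 (SE 0.24, limma adjusted p = 0.00644) with gapmer 2, from 17.06, 16.47 and 16.34 to 15.25, 15.46 and 15.17. It was also lower with RP11-161H23.5 gapmer 1, by 1.05 (limma adjusted p = 0.0143).

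**Figure D3:**
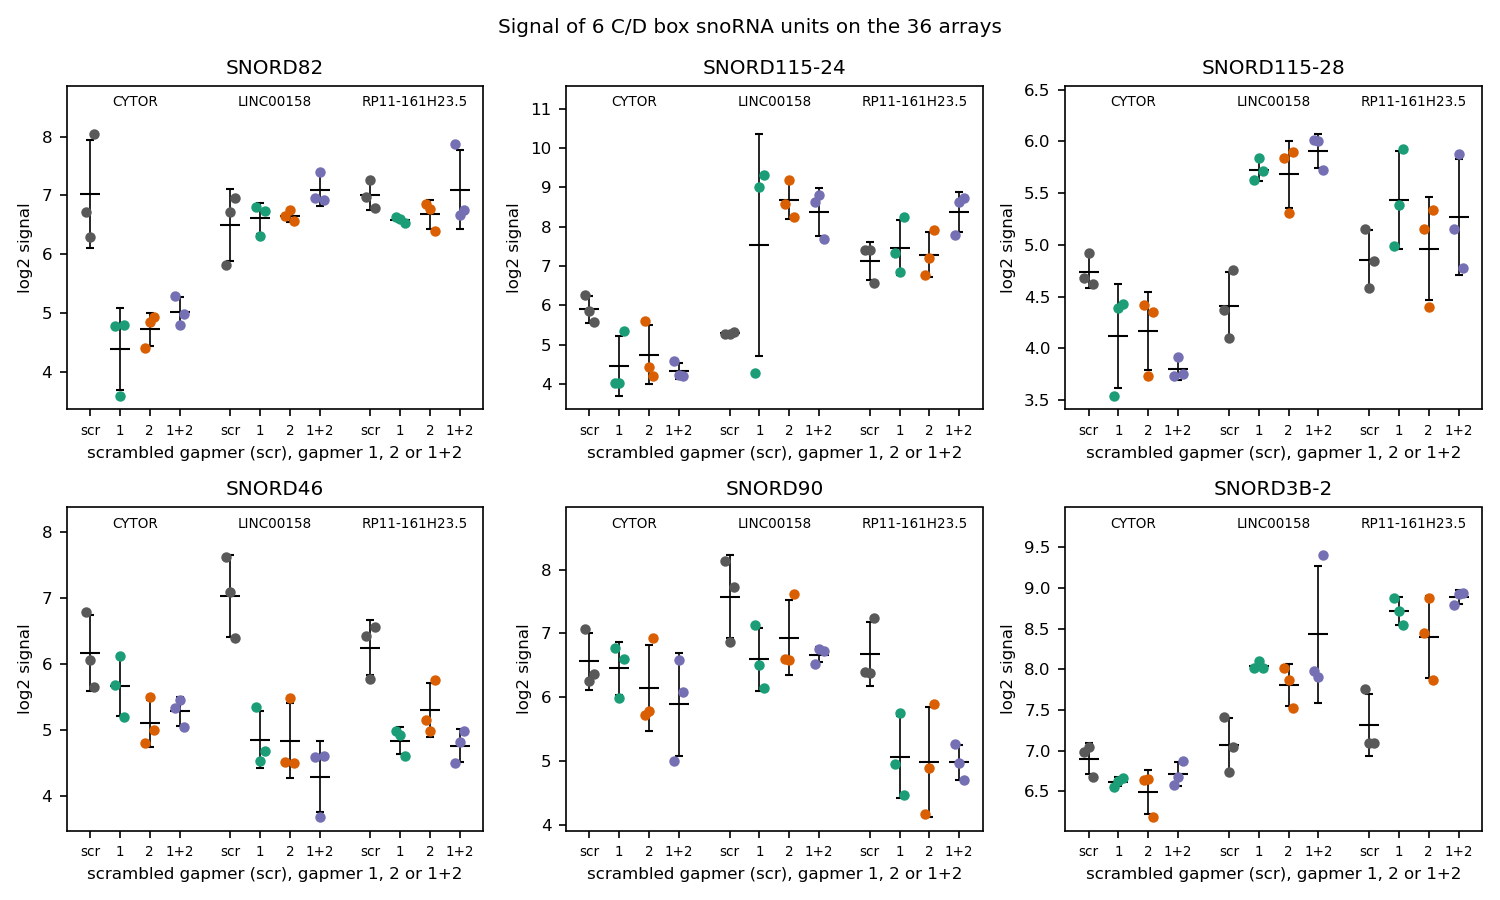
Log2 signal of 6 members on each array (dots), with group mean and SD (bars, n = 3), for scrambled gapmer (scr) and gapmers 1, 2 and 1+2 of each experiment, and a separate vertical scale in each panel. SNORD82 was low on all 9 treated CYTOR arrays, SNORD115-24 read 4.28 on 1 LINC00158 gapmer 1 array and 9.02 and 9.32 on the others, and SNORD90 was low on the treated RP11-161H23.5 arrays.

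In the LINC00158 experiment several guides fell. SNORD17, a guide of 28S ribosomal RNA within SNX5, read 6.97, 6.20 and 6.02 on the scrambled arrays, 5.48, 4.47 and 4.81 with gapmer 1, 5.07, 4.88 and 4.84 with gapmer 2 and 5.0, 4.53 and 5.96 with gapmer 1+2. No treated array reached the lowest scrambled one. The changes were -1.48, -1.47 and -1.23 (SE 0.38; limma adjusted p = 0.0349, 0.0262 and 0.0509). SNORD17 on the RP11-161H23.5 arrays went from 6.16, 5.55 and 6.36 to values between 4.34 and 5.08, with changes of -1.33, -1.02 and -1.04 (SE 0.23; limma adjusted p = 0.00482, 0.0161 and 0.0118). Its host SNX5 was not called in the LINC00158 experiment (-0.40, -0.43 and -0.38) and rose by 1.20 with RP11-161H23.5 gapmer 2 (limma adjusted p = 0.0365).

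SNORD88A and SNORD56B were lower with all 3 LINC00158 treatments at low signal. SNORD88A, a 28S guide, had scrambled values of 4.94, 4.80 and 5.06 and treated values between 3.79 and 4.41, with changes of -0.94, -0.85 and -0.83 (SE 0.20; limma adjusted p = 0.0175, 0.0175 and 0.0213). It was also called with RP11-161H23.5 gapmers 1 and 2, at -0.81 and -0.97. SNORD56B had scrambled values of 4.89, 4.69 and 4.82 and treated values between 3.54 and 4.16, with changes of -1.03, -0.74 and -0.91 (SE 0.17; limma adjusted p = 0.00767, 0.0175 and 0.00935).

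SNORD104, a 28S guide in the host transcript SNHG25, was bright and variable. In the LINC00158 experiment it read 16.78, 16.04 and 15.28 on the scrambled arrays and 13.62, 12.57 and 13.30 with gapmer 2, a change of -2.87 (SE 0.77, limma adjusted p = 0.0288) that was called in 9 of 14 alternatives. The gapmer 1 arrays read 15.55, 12.03 and 13.57 and those of gapmer 1+2 read 14.01, 13.11 and 14.98, and neither was called. With RP11-161H23.5 gapmers 2 and 1+2 it was lower by 0.77 and 1.03 (limma adjusted p = 0.0295 and 0.00678). SNORD104 was also called higher on the LINC00158 than on the RP11-161H23.5 scrambled arrays, by 1.73 to 2.51 over 12 alternatives, of which 6 kept the call. SNORD59A of the ATP5F1B introns (-1.03, gapmer 1), SNORD4A of RPL23A (-1.27, gapmer 2), SNORD92 of WDR43 (-0.83, gapmer 2) and SNORD71 of AP1G1 (-1.41, gapmer 1+2) were each lower in 1 LINC00158 treatment.

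SNORD94, whose target is the spliceosomal U6 RNA and whose host is PTCD3, read 4.16, 4.02 and 3.68 on the scrambled arrays, 4.51, 5.17 and 5.14 with gapmer 1, 4.91, 5.0 and 5.47 with gapmer 2 and 5.02, 5.74 and 5.02 with gapmer 1+2, so every treated array was above every scrambled one. The changes were 0.99, 1.17 and 1.31, with limma adjusted p = 0.0492, 0.0211 and 0.0153 in the fit of all units without the filter. The scrambled arrays of the RP11-161H23.5 experiment read 5.22, 4.77 and 5.23. PTCD3 was called in neither experiment.

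In the RP11-161H23.5 experiment the largest fall was that of SNORD90, which lies within RC3H2. It read 6.4, 6.38 and 7.25 on the scrambled arrays, 4.96, 5.76 and 4.48 with gapmer 1, 4.17, 4.90 and 5.89 with gapmer 2 and 5.27, 4.97 and 4.71 with gapmer 1+2, without overlap. The changes were -1.61, -1.69 and -1.69 (SE 0.44; limma adjusted p = 0.0336, 0.0294 and 0.0234), and the calls held in 8, 8 and 11 of 14 alternatives. The losses came mostly when 1 array was left out. The host RC3H2 also fell, by 0.90, 0.60 and 0.93 (limma adjusted p = 0.00918, 0.0471 and 0.00627), and an array unit within an intron does not separate the mature small RNA from the host's precursor.

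SNORD1B, a 28S guide in SNHG16, rose in all 3 RP11-161H23.5 treatments. Its scrambled arrays read 4.20, 4.21 and 4.10, and its treated arrays lay between 4.40 and 5.42. The changes were 0.97, 0.91 and 0.85 (SE 0.25; limma adjusted p = 0.0274, 0.0371 and 0.0389), and the calls held in 7, 5 and 5 of 13 alternatives. SNORD69 of GNL3 (1.03), SNORD14E of HSPA8 (0.96) and SNORD9 of CHD8 (0.88) were higher with gapmer 1+2, while SNORD24 fell by 0.73 with gapmer 1 (limma adjusted p = 0.0413).

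The snoRNAs of pre-ribosomal RNA processing did not share a direction. The U3 copies SNORD3A, SNORD3B-2, SNORD3C and SNORD3D, needed for the first cleavages that release 18S ribosomal RNA, are nearly identical in sequence, so the signal of each is uncertain. SNORD3D fell in the LINC00158 experiment from 11.73, 11.79 and 10.80 to 9.74, 8.64 and 8.44 with gapmer 1 and to 9.53, 9.01 and 9.58 with gapmer 2, by 2.5 and 2.07 (SE 0.51; limma adjusted p = 0.0159 and 0.0222). Its gapmer 1+2 arrays read 9.66, 9.17 and 11.22 and were not called. SNORD3A fell by 1.15 with CYTOR gapmer 2 (limma adjusted p = 0.0496), and SNORD3C was called in no treatment.

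SNORD3B-2 went the other way from SNORD3D. In the RP11-161H23.5 experiment it rose from 7.76, 7.10 and 7.10 to 8.88, 8.72 and 8.54 with gapmer 1, to 8.44, 8.87 and 7.87 with gapmer 2 and to 8.79, 8.93 and 8.94 with gapmer 1+2, above every scrambled array. The changes were 1.39, 1.07 and 1.57 (SE 0.26; limma adjusted p = 0.00719, 0.0227 and 0.00337). It rose by 1.36 with LINC00158 gapmer 1+2 (limma adjusted p = 0.0286), where 1 array at 9.40 lay above the others at 7.98 and 7.91. The U14 members SNORD14A (RPS13) and SNORD14E (HSPA8), which serve 18S processing, gave 1 call in the 9 treatments, that of SNORD14E named above.

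For SNORD13 and its pseudogene copy SNORD13P3 on chromosome 3 many arrays carried exactly the same value. SNORD13P3 read 15.46 on 8 of the 9 scrambled arrays of the whole series, 14.02 on 7 of the 9 treated CYTOR arrays, 13.39 on 4 of the treated LINC00158 arrays and 15.49 on 4 of the treated RP11-161H23.5 arrays. SNORD13 read 19.1 on 6 scrambled arrays, 17.61 on 6 treated LINC00158 arrays and 19.65 on 6 treated RP11-161H23.5 arrays. Of the 152 members, 3 had 5 or more equal values among the 9 arrays of a set, as had 1931 of all 135750 units. The changes of SNORD13P3 were -1.25, -1.26 and -1.14 on the CYTOR arrays (SE 0.19; limma adjusted p = 0.00353, 0.00306 and 0.00613) and -1.84, -2.09 and -2.16 in the LINC00158 experiment (SE 0.30; limma adjusted p = 0.00686, 0.00314 and 0.00283). SNORD13 fell by 1.49 and 1.85 with LINC00158 gapmers 2 and 1+2 (limma adjusted p = 0.0246 and 0.0128) and was called higher with RP11-161H23.5 gapmers 1 and 1+2, by 0.52 and 0.49. A repeated value shows no spread between arrays, so the p-values of this pair rest on less measured variation than those of other members.

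Nearly all SNORD115 copies were above 0 in the LINC00158 experiment, most of them at low signal. SNORD115 RNAs are known mainly from brain, where a stretch of them pairs with the serotonin receptor 2C transcript. Of the 22 copies, 21 had a mean change of the 3 treatments above 0 in the LINC00158 experiment, with a median of 0.61, where 43.8% of all array units were above 0. On the CYTOR arrays 8 were above 0 and 14 below, with a median of -0.21, and 36.6% of all units were above 0. In the RP11-161H23.5 experiment 10 were above and 12 below, with a median of -0.03, and 46.8% of all units were above 0. On the scrambled arrays alone, the copies had a median of -0.68 for LINC00158 minus RP11-161H23.5 and 0.38 for CYTOR minus LINC00158. Over all units these were 0.03 and 0.01. The part of these control levels was not tested. Only 6 copies passed the signal filter in the LINC00158 experiment and 3 on the CYTOR arrays, and copies with near-identical sequence are not independent measurements.

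SNORD115-24 read 5.27, 5.26 and 5.33 on the LINC00158 scrambled arrays, 8.57, 9.19 and 8.25 with gapmer 2 and 8.63, 8.82 and 7.68 with gapmer 1+2. The gapmer 1 arrays were split, with 4.28 on the first and 9.02 and 9.32 on the others. The changes were 2.25, 3.38 and 3.09 (SE 1.02), of which gapmer 2 was called (limma adjusted p = 0.163, 0.0428 and 0.062). On the CYTOR arrays it went from 6.26, 5.86 and 5.57 to 4.01, 4.02 and 5.34 with gapmer 1, 5.61, 4.42 and 4.20 with gapmer 2 and 4.57, 4.22 and 4.21 with gapmer 1+2. Those changes were -1.44, -1.15 and -1.56 (SE 0.42; limma adjusted p = 0.0454, 0.0892 and 0.039), and the 2 calls held in 3 and 5 of 14 alternatives. The RP11-161H23.5 scrambled arrays read 7.42, 7.41 and 6.56, above those of the LINC00158 experiment.

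SNORD115-28 rose in the LINC00158 experiment with little spread, from 4.37, 4.10 and 4.76 to 5.63, 5.84 and 5.71 with gapmer 1, 5.84, 5.31 and 5.90 with gapmer 2 and 6.01, 6.0 and 5.72 with gapmer 1+2. This amounted to changes of 1.32, 1.27 and 1.5 (SE 0.22; limma adjusted p = 0.0082, 0.00676 and 0.00407), with no overlap between treated and scrambled arrays. SNORD115-45 rose from 6.24, 6.97 and 7.47 to between 7.47 and 8.87, by 1.20, 1.35 and 1.66 (SE 0.34; limma adjusted p = 0.0465, 0.0235 and 0.0129). The first gapmer 1 array, at 7.47, equalled the highest scrambled array. On the CYTOR arrays SNORD115-45 changed by -1.68, -1.77 and -1.48 (SE 0.52), of which gapmer 2 was called (limma adjusted p = 0.0579, 0.0454 and 0.0958).

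**Figure D4:**
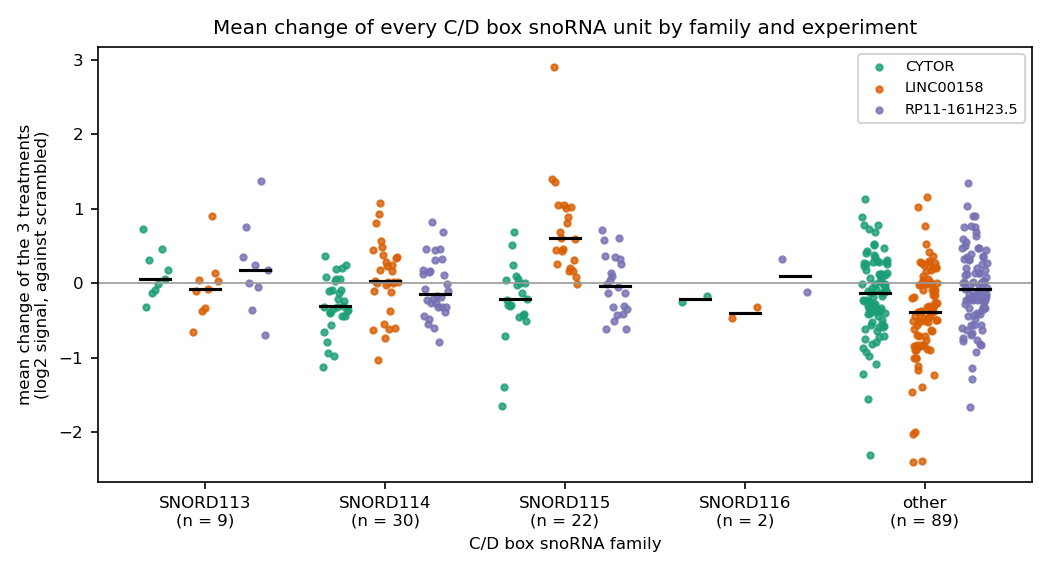
Mean change of the 3 treatments against scrambled (log2 signal) of each of the 152 units, by family and experiment, with the median as a bar. The SNORD115 copies lie above 0 in the LINC00158 experiment except 1 at -0.01, and the 89 other members have lower medians there than in the other 2 experiments.

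The copies of chromosome 14 went in several directions. Among the 30 SNORD114 copies, 20 had a mean change above 0 in the LINC00158 experiment (43.8% of all units had), 12 in the RP11-161H23.5 experiment (46.8%) and 8 on the CYTOR arrays (36.6%). SNORD114-1 rose in all 3 LINC00158 treatments, from 4.11, 4.23 and 4.17 to between 4.75 and 5.51, by 1.02, 1.00 and 0.78 (SE 0.22; limma adjusted p = 0.0187, 0.0146 and 0.0368). SNORD114-4 fell in the same arrays, from 5.37, 5.30 and 5.49 to between 4.07 and 4.87, by 0.87, 1.14 and 1.09 (SE 0.20; limma adjusted p = 0.0237, 0.00658 and 0.00855). It was also lower with CYTOR gapmers 2 and 1+2 (-1.32 and -0.81) and RP11-161H23.5 gapmer 1+2 (-0.76). SNORD114-4 and SNORD46 were called lower in at least 1 treatment of all 3 experiments, and no member was called higher in all 3. The share of all units called in all 3 experiments was not counted, so this overlap is not read as a result about the members.

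SNORD114-14 read higher with LINC00158 gapmers 2 and 1+2 (0.90 and 1.40), from a scrambled mean of 3.86, below the filter. The fit of all units without the filter gave limma adjusted p = 0.0522 and 0.0112, so gapmer 2 was not called there. With RP11-161H23.5 gapmer 1 SNORD114-14 was lower (-0.65), a call that 2 of 13 alternatives kept. SNORD113-4 read 2.96, 3.20 and 2.85 on the scrambled RP11-161H23.5 arrays, 4.46, 4.28 and 4.55 with gapmer 1, 3.34, 4.57 and 4.47 with gapmer 2 and 4.03, 4.96 and 4.69 with gapmer 1+2. Every treated array was above the scrambled ones, by 1.43, 1.12 and 1.56 in the mean, and the fit of all units without the filter gave limma adjusted p = 0.0179, 0.0478 and 0.0104. SNORD113-3 was called higher there in 1 treatment. Their RefSeq host MEG8 was called lower with RP11-161H23.5 gapmer 1+2 (-1.16, limma adjusted p = 0.0175) and in no other treatment. The pair of SNORD116 copies had mean changes between -0.47 and 0.32 and no call.

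The 22 units on another chromosome than the RefSeq gene were not read as a report on the named host. SNORD46, a 28S guide, was measured by such a unit, on chromosome 7. It read 7.62, 7.10 and 6.39 on the LINC00158 scrambled arrays, 5.35, 4.53 and 4.68 with gapmer 1, 4.52, 5.49 and 4.49 with gapmer 2 and 4.59, 3.67 and 4.61 with gapmer 1+2. This amounted to changes of -2.18, -2.20 and -2.75 (SE 0.40; limma adjusted p = 0.0109, 0.00759 and 0.00367). In the RP11-161H23.5 experiment the changes against scrambled were -1.41, -0.95 and -1.49 (SE 0.26, limma adjusted p = 0.00714, 0.0376 and 0.00453). Treated and scrambled arrays did not overlap in either experiment. With CYTOR gapmer 2 it fell by 1.07 (limma adjusted p = 0.0491), which 5 of 14 alternatives kept. The symbol has a second unit, and the mean of both gave changes of -1.19, -1.09 and -1.47 in the LINC00158 experiment, all still called. In the RP11-161H23.5 experiment that mean gave -0.79, -0.43 and -0.84, of which gapmer 1+2 was still called (limma adjusted p = 0.0643, 0.305 and 0.0451).

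The GAS5 snoRNAs among the members were SNORD44, SNORD74, SNORD75, SNORD77, SNORD78, SNORD79 and SNORD81, of which only SNORD81 had its unit on the chromosome of GAS5. The SNORD74 copy fell with CYTOR gapmers 2 and 1+2 by 1.14 and 1.11 (limma adjusted p = 0.0126 and 0.0174), and the SNORD75 copy with CYTOR gapmer 1 (-1.14) and RP11-161H23.5 gapmer 2 (-1.40). The calls of SNORD74 held in 12 and 10 of 14 alternatives, and those of SNORD75, at limma adjusted p = 0.0469 and 0.0486, in 3 and 2 of 13. SNORD81 ranged from 3.99 to 6.4 and was not called. The SNHG1 snoRNAs SNORD27 to SNORD31 had units on other chromosomes. Of these SNORD28 was tested in all experiments and SNORD27 and SNORD31 in that of LINC00158, without a call, and SNORD29 and SNORD30 passed the filter in none. Of the small RNAs often used as references in RT-qPCR, SNORD44, SNORD72 and SNORD95 were measured, and neither SNORD72 nor SNORD95 was called where tested. SNORD44 and SNORD79 of GAS5 and SNORD33 of RPL13A did not pass the signal filter in any experiment, and SNORD72 read between 2.84 and 5.67.

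Whether a change differed between experiments was tested on the mean change of the 3 treatments, in 1 fit of all 36 arrays, where 91 members were tested. Between the CYTOR arrays and the LINC00158 experiment 27 members differed, 17 with the higher change on the CYTOR arrays and 10 with the lower, where 25.8% of all units tested differed. SNORD82 differed by -2.60 (SE 0.42, limma adjusted p = 5.06e-05), SNORD115-28 by -2.07 (SE 0.33, limma adjusted p = 5.01e-05) and SNORD94 by -1.79 (SE 0.25, limma adjusted p = 9.58e-06). Between the CYTOR arrays and the RP11-161H23.5 experiment 15 differed (19.0% of all units), among them SNORD3B-2 by -1.64 and SNORD24 by 1.49. Between LINC00158 and RP11-161H23.5 12 differed (9.66% of all units), among them SNORD114-14 by 1.55, SNORD94 by 1.38 and SNORD3D by -1.72. SNORD114-14 and SNORD94 were also called lower on the LINC00158 than on the RP11-161H23.5 scrambled arrays. That control difference was -1.30 to -0.92 and -1.27 to -0.98 over 11 alternatives, and it is part of the values 1.55 and 1.38. Every one of these tests also takes in the scrambled arrays of each experiment. The treated arrays compared belong to different sets, so the experiment and the set cannot be told apart.

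The scrambled groups received the same control, and their comparison stays within 1 set of arrays. Between the CYTOR and LINC00158 experiments 0 members were called by limma, as was 0.0% of all units, and 19 members had an unadjusted p under 0.05, as had 9.73% of all units. Between CYTOR and RP11-161H23.5, SNORD11, SNORD36C and SNORD41 were higher in CYTOR (2.04, 2.40 and 2.79), beside 1.53% of all units called. Between LINC00158 and RP11-161H23.5, 17 members were called beside 5.19% of all units, 14 higher in LINC00158 and 3 lower. All 14 were outside the imprinted families. SNORD36C read 12.85, 12.58 and 12.40 against 9.72, 10.04 and 9.99 (2.69, limma adjusted p = 0.00548), and SNORD93 read 17.86, 17.79 and 18.02 against 16.10, 15.87 and 15.63 (2.02, limma adjusted p = 0.00623). SNORD115-24, SNORD114-14 and SNORD94 were the members lower in LINC00158 (-1.84, -1.14 and -1.12). Leaving out any 1 of the 6 arrays left 3 to 11 calls, with 3 without the first or the second LINC00158 array.

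Gapmers against the same target were not told apart. The single gapmers compared with each other, and their mean compared with gapmer 1+2, gave 0 calls by limma among the members and among all units (0.0%) in each experiment. At an unadjusted p under 0.05, 7, 1 and 5 members differed between the single gapmers of CYTOR, LINC00158 and RP11-161H23.5 (6.4%, 4.22% and 6.38% of all units), and 3, 8 and 11 between gapmer 1+2 and the singles (6.57%, 4.43% and 8.37%). For SNORD82 on the CYTOR arrays, gapmer 1 minus gapmer 2 was -0.33 and gapmer 1+2 minus the single gapmers 0.46. A missed threshold does not show that the gapmers act alike.

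The array unit of FBL, which measures the transcript of fibrillarin and not the protein, was called in all 3 experiments. In the RP11-161H23.5 experiment only gapmer 1+2 was called. Of the 4 core proteins, FBL (fibrillarin, the methyltransferase), NOP58 and SNU13 had a unit. FBL rose on the CYTOR arrays from 15.37, 15.53 and 15.53 to between 16.02 and 16.36, by 0.75, 0.81 and 0.63 (limma adjusted p = 0.00905, 0.00617 and 0.021). It fell in the LINC00158 experiment from 15.61, 15.53 and 15.53 to between 14.01 and 14.64, by 1.27, 1.35 and 1.25 (limma adjusted p = 0.00515, 0.00306 and 0.00444), and by 0.74 with RP11-161H23.5 gapmer 1+2. The scrambled value 15.53 repeats exactly in the CYTOR and LINC00158 groups. As for SNORD13P3, these p-values then rest on less measured variation. NOP58 and SNU13 were called in no treatment. Of the 11 assembly and transport factors, none was called on the CYTOR arrays. In the LINC00158 experiment 2, 3 and 1 were lower, where 6.28%, 10.5% and 8.82% of all units were, among them PIH1D1 (-1.49, -2.03 and -1.47) and the ATPase RUVBL1 (-1.66 and -1.71 with single gapmers). In the RP11-161H23.5 experiment 1, 0 and 3 were lower, among them ZNHIT6 and PHAX, where 7.1%, 7.03% and 9.3% of all units were lower. In the fit of all 36 arrays, all 3 core proteins and 4 of the 11 factors had a higher mean change on the CYTOR arrays than in the LINC00158 experiment. There 25.8% of all units differed. Compared with RP11-161H23.5, 1 core protein and 1 factor were higher on the CYTOR arrays (19.0% of all units differed). For LINC00158 against RP11-161H23.5, 2 core proteins and 2 factors were lower in LINC00158 (9.66% of all units differed).

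Of the 74 H/ACA box snoRNAs, which guide pseudouridylation, 67 were tested on the CYTOR arrays and 65 in each of the other experiments. Of those, 0, 1 and 1 were called higher and 3, 7 and 2 lower on the CYTOR arrays, 0, 3 and 2 higher and 2, 6 and 7 lower in the LINC00158 experiment, and 3 higher in each RP11-161H23.5 treatment with 3, 4 and 5 lower. The shares of all units called are those given above for the same treatments, between 1.54% and 6.98% higher and between 6.28% and 12.4% lower. Of the 5 H/ACA proteins measured, NHP2 fell with CYTOR gapmer 1+2 (-1.06) and LINC00158 gapmers 2 and 1+2 (-1.07 and -0.87). These counts were not tested against those of the C/D members.

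Host genes could be set beside 37 members with a unit at the RefSeq locus or unplaced, from 27 hosts. The hosts were taken from RefSeq positions without strand. Of these pairs, 6 had a host at the array's ceiling of 19.93 on at least 1 array, RPL7A among them on every array, so a change of these hosts was not measured. Over the remaining 31 pairs of 24 hosts, the change of snoRNA and host had a Spearman rho between -0.12 and 0.26 over the 9 treatments, given as a description because snoRNAs of a host and all values of an experiment share arrays. The median host change was -0.79, -1.05 and -0.77 with the LINC00158 treatments and that of their snoRNAs -0.40, -0.33 and -0.27. On the CYTOR arrays the hosts had medians of 0.15, -0.14 and 0.13 and the snoRNAs -0.11, -0.36 and -0.22.

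**Figure D5:**
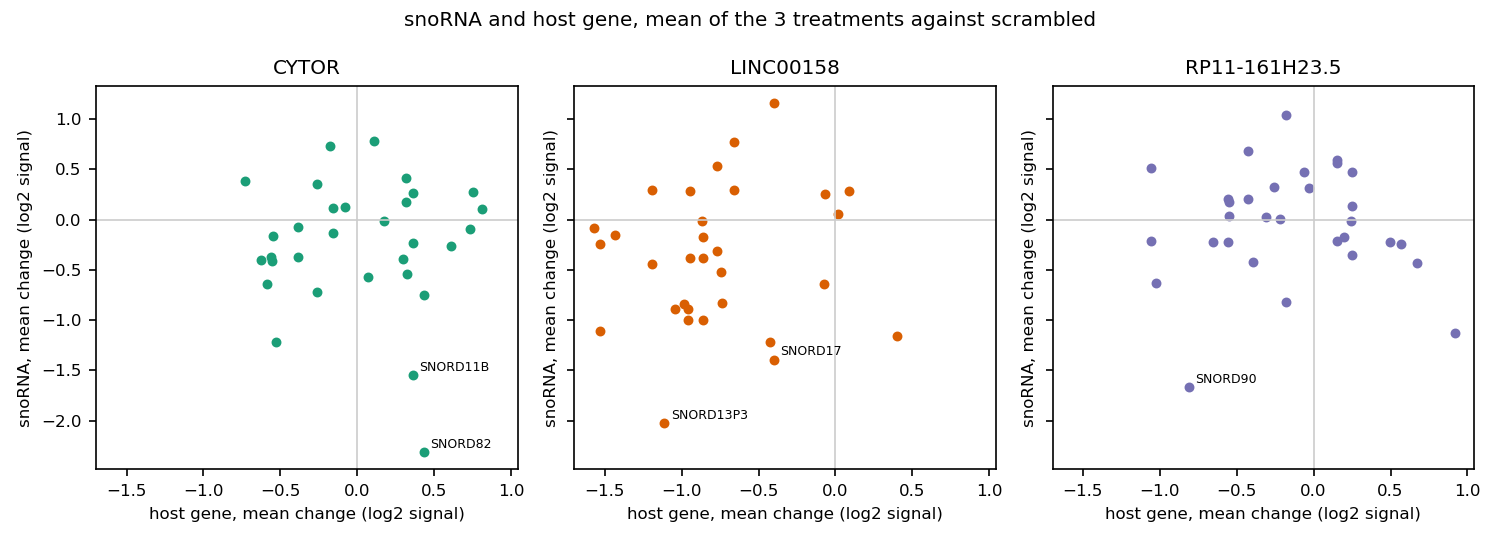
Mean change of the 3 treatments for each snoRNA (vertical) and its host gene (horizontal), in log2 signal against scrambled, for the 31 pairs whose host was below the ceiling. SNORD82 and SNORD11B lie low on the CYTOR arrays at host changes above 0, and SNORD90 and its host both lie below 0 in the RP11-161H23.5 experiment.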

How the data were processed

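The deposited values are log2 signals for 135750 units on 36 arrays of total RNA. Per the submitters' processing notes, the authors ran RMA in Affymetrix Expression Console, whose version, like the genome build, is not given in the sources used here. Amplification used random and poly-A primers per the labels' protocols.

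Units were named from the platform's annotation, and chromosomes and hosts came from RefSeq (GRCh38.p14), where 151 members matched. Each experiment was fitted with limma 3.58.1 in R 4.3.3 (4 group means, 8 residual degrees of freedom) over units at or above the 50th percentile of mean signal, with Benjamini-Hochberg adjustment over all of them. The fit was tested on simulated data.

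The members and lists were chosen with earlier results of these data known. Named were processing, reference, RPL13A, GAS5 and SNHG1 snoRNAs, the members with the largest changes per experiment, treatment, imprinted family and pair of experiments, and up to 4 proteins a list. Further called members were named after their values were seen. Alternatives were filters, quantile normalization, moderation, unit choice, fit size, a replicate block and leaving out arrays.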

Additional observations from a re-analysis of the deposited data

Results flagged for a closer look

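For 6 values the mean change of the 3 treatments differed between experiments in the fit of all 36 arrays and is given here as a closer look. In these comparisons too the experiment and the set of arrays cannot be told apart. SNORD115-24 differed by -4.29 between the CYTOR arrays and the LINC00158 experiment (limma adjusted p = 0.000528), where it fell in one and rose in the other. SNORD115-45 differed by -3.05 between the same experiments (limma adjusted p = 0.000198) and by -2.36 between the CYTOR arrays and RP11-161H23.5 (limma adjusted p = 0.00309). SNORD82 differed by -2.09 between the CYTOR arrays and RP11-161H23.5 (limma adjusted p = 0.000745). SNORD63, a 28S guide of HSPA9, differed by -2.15 between LINC00158 and RP11-161H23.5 (limma adjusted p = 0.0107), although no single treatment of it was called. Its scrambled arrays read 10.83, 10.30 and 9.61 in LINC00158 and 7.47, 8.06 and 7.55 in RP11-161H23.5. The value rests on the choice of 1 of its units: the mean of all its units gave -0.11 (limma adjusted p = 0.825), and 6 of 9 alternatives kept the call. SNORD13P3 differed by -2.04 between LINC00158 and RP11-161H23.5 (limma adjusted p = 2e-05), on values of which many repeat exactly. No test for an outlying array was run in groups of 3.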

How the results depend on the processing

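Treatment and set of arrays cannot be told apart, near-identical copies share signal, and 3 arrays a group limit precision. The counts of called members moved by over 1.5 times as follows, in the order gapmer 1, 2 and 1+2. With the filter at the 75th percentile, 3, 6 and 4 were called for CYTOR (5, 12 and 7 as reported), 8, 11 and 9 for LINC00158 (13, 17 and 15), and 7 for RP11-161H23.5 gapmer 2 (13). With quantile normalization, CYTOR had 3, 7 and 2. Fitting only the groups compared gave 3, 5 and 4 for CYTOR, 0 for LINC00158 gapmer 1, and 8 and 6 for RP11-161H23.5 gapmers 1 and 1+2. A fit of all 36 arrays gave 11 and 12 for CYTOR gapmers 1 and 1+2, 21 for LINC00158 gapmer 1 and 7 for RP11-161H23.5 gapmer 1+2. Between the scrambled groups of CYTOR and RP11-161H23.5 (3 calls), the filter and trend with robust moderation each gave 5 and the mean of all units of a symbol 1. Between those of LINC00158 and RP11-161H23.5 (17), quantile normalization gave 9, and for the mean change of LINC00158 against RP11-161H23.5 (12) the filter gave 7. Causes were not tested. The numbers did not pair the arrays: same-number deviations correlated above 0.1 in 1, 2 and 1 of 18 pairs per experiment. With the replicate block 3 members were called with CYTOR gapmer 1.

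The median change of the members tested was -0.185, -0.2383 and -0.1767 for CYTOR, and 0.0881, 0.0714 and 0.0489 with quantile normalization, which moved the median of all units from -0.15, -0.14 and -0.13 to about 0.00. With the mean of all units of a symbol it was -0.1133 and -0.1367 for CYTOR gapmers 1 and 1+2 and -0.26 for LINC00158 gapmer 2. For LINC00158 gapmers 1 and 2 (-0.3533 and -0.32) quantile normalization gave -0.0796 and -0.0415 and taking all members -0.085 and -0.105. For RP11-161H23.5 gapmers 1 and 2 (0.0267 and 0.0733) quantile normalization gave 0.0975 and 0.1535, and taking all members gave -0.07, -0.095 and, for gapmer 1+2 (0.1633), -0.0267. SNORD13P3 reversed under quantile normalization in CYTOR against LINC00158, from 0.81 to -0.0418, and the cause was not tested.

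Leaving out 1 array gave 2 to 4, 7 to 10 and 1 to 5 calls for CYTOR, 4 to 32, 6 to 15 and 9 to 16 for LINC00158, and 5 to 9, 3 to 7 and 5 to 11 for RP11-161H23.5. The 32 came without the first gapmer 1 array. Between scrambled groups it gave 0, 1 to 4 and 3 to 11, and for differences between experiments 10 to 25, 4 to 10 and 1 to 8. The medians ranged from -0.2525 to -0.1167, -0.245 to -0.1983 and -0.1967 to -0.125 for CYTOR, from -0.3417 to -0.1617, -0.3767 to -0.1917 and -0.3775 to -0.08 for LINC00158, and from -0.095 to 0.0517, 0.0217 to 0.075 and 0.0833 to 0.1867 for RP11-161H23.5. Counted over each combination of a named call and a left-out array, 340 kept and 313 lost the threshold, where fewer samples enter.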
